A study of Mus musculus with 12 samples.

Results

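The genes described were 10 members of the circadian clock, taken by their symbols from the gene counts of the dorsal hippocampus: Bhlhe40, Bhlhe41, Per1, Per2, Per3, Cry1, Cry2, Ciart, Nr1d1 and Dbp. All 10 were among the 24985 genes counted, and all 10 were among the 14742 genes with enough reads to be tested. Bhlhe40 and Per1 were picked for the pattern they show, which includes the difference between the diets in PBS-injected mice. Their values in any comparison that holds PBS-injected mice are therefore given as a description, without a test. The pattern may also take in the tau-injected groups, so their tests there may not be independent of the choice. The question put to these genes was whether the repressors and outputs of the clock and its activators move in opposite directions, as they can when the phase of the clock shifts.

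The mice were wild-type C57Bl6/J animals, injected at 6 months of age on one side of the hippocampus with PBS or with 1 µg of tau purified from brains of people with Alzheimer's disease (AD tau), and kept for 6 months more on control chow or on chow with 5% sodium acetate. This gave 4 groups of 3 mice, called here tau acetate, tau control, PBS acetate and PBS control. The right dorsal hippocampus, on the injected side, was dissected from 1 mm slices 24 h after a test of remote fear memory, and the mice sequenced were a selection made by the study from each group. Human tau seeds the aggregation of the mouse's own tau in this model, which has no transgene. All tissue was harvested on the same day under a 12 h light and 12 h dark cycle, and the hour at which each mouse was killed was not given in the sources used here. The study ran its behavioral tests in the first hours of the light phase. Without the hour of each mouse, the time of harvest and the group cannot be told apart for clock genes.

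In mammals the clock is a loop of transcription with a period of about a day. The activators Arntl (BMAL1) and Clock, or Npas2 in the forebrain, bind E-boxes as pairs and switch on Per, Cry, Nr1d1, Dbp, Ciart, Bhlhe40 and Bhlhe41. The PER and CRY proteins then inhibit the activator pair, BHLHE40 and BHLHE41 compete with it for E-boxes, and NR1D1 (REV-ERB alpha) represses Arntl and Npas2, so that Arntl and Npas2 run roughly opposite in phase to Dbp and Nr1d1. In the hippocampus the loop runs locally and Per1 and Bhlhe40 also respond to neuronal activity, and Per1 to glucocorticoids.

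To show which members hold the clock's binding motifs near their starts, RefSeq windows from 250 bases before to 50 bases after each start (GRCm38.p6) were searched on both strands. Windows were at hand for 8 of the 10 members, all but Bhlhe40 and Per2. The canonical E-box CACGTG lay in the windows of 4 of these 8, Ciart, Per1, Cry1 and Bhlhe41, and in 7.15% of all 32851 windows. The D-box TTATGTAA, a site for DBP and its relatives, lay 2 times before the start of Per3, and in 0.938% of all windows. No member window held TTACGTAA (0.119% of all windows), the cAMP response element TGACGTCA (1.79%), or the REV-ERB and ROR elements TAGGTCA (2.61%) and TGGGTCA (3.98%). Dbp, Nr1d1 and Cry2 held none of these motifs, which says only that the letters are not in these windows. A match is a description of the letters and not a site shown to be bound. The sequences that hold the motifs are printed 5′ to 3′ on the gene's own strand, with the E-box or D-box in capitals. For Ciart, which has 3 E-boxes, they are the bases upstream of the first exon, chr3:95882252-95882478 on the minus strand. For Per1 they are exon-free bases before its more distal RefSeq start, chr11:69098699-69098947 on the plus strand. That stretch lies inside the longer span given below for the annotated Per1 gene. For Cry1 (chr10:85185097-85185126), Bhlhe41 (chr6:145865556-145865585) and Per3 (chr4:151044852-151044881 and chr4:151044805-151044834), all on the minus strand, 30 bases around the motif are shown, a choice made after the expression values were seen.
Ciart: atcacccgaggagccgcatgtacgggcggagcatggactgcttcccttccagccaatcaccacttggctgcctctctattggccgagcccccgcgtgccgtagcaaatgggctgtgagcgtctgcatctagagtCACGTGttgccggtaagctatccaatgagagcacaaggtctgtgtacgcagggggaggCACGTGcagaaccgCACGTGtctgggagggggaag
Per1: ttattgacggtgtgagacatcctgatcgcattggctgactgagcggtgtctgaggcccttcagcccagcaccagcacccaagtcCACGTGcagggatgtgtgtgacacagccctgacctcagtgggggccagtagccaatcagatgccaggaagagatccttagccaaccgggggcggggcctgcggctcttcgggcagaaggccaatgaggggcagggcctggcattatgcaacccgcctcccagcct
Cry1: ggtgccggtggtCACGTGgggtgcatgccg
Bhlhe41: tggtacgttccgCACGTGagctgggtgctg
Per3 distal: cgacccgcgcgTTATGTAAggtactcgggg
Per3 proximal: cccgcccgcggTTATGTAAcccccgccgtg

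The libraries held 12983233 to 20218340 counts each, and each member was covered by at least 73 counts in every mouse. Levels are CPM (library-size-scaled counts) after TMM normalization, a scaling that makes libraries comparable. Mice of the same group differed by more than counting noise. Xist was counted in all 12 mice, at 13583 to 25991 counts, and the 49 Y-linked genes together had 0 counts, which goes against the label of male mice. PBS control mouse 2 held the most RNA of thalamic markers, and tau acetate mouse 3 the most of choroid plexus markers. The labelled tissue was checked by its markers, whose summed levels were 452 to 946 CPM for CA1, 266 to 569 CPM for CA3 and 519 to 829 CPM for dentate granule cells over the 12 mice. In bulk tissue, fewer cells of a type and less RNA per cell cannot be told apart.

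Per kilobase of exon in the PBS control mice, Nr1d1 and Cry2 were the most abundant members, at 23.9 ± 2.74 and 23.4 ± 0.742 CPM per kilobase (mean ± SD, n = 3), and their ranges overlapped. Bhlhe40 followed at 19.2 ± 0.841, Dbp at 16.6 ± 1.51, Per1 at 12 ± 1.45 and Bhlhe41 at 8.79 ± 0.719 CPM per kilobase, each without overlap with the next. Per2 stood at 6.25 ± 0.492, Per3 at 4.96 ± 0.929 and Cry1 at 4.81 ± 0.622 CPM per kilobase, and Per3 overlapped both of its neighbours in this order. Ciart was the lowest, at 2.42 ± 0.102 CPM per kilobase.

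Acetate against control diet was compared first in PBS-injected mice, to ask what the diet changes without tau. Of the 8 members not picked for their pattern, 6 rose with acetate (Ciart, Dbp, Nr1d1, Per2, Bhlhe41 and Cry2), none fell, and Per3 and Cry1 did not pass the test. The list of clock genes was itself chosen with earlier results of these data known, so the count of 6 is not independent evidence. Across all genes tested, 3.99% were called higher in this comparison, 4.85% lower and 8.84% in either direction, by a quasi-likelihood test in edgeR with Benjamini-Hochberg adjusted p below 0.1. Adjusted p-values given for single genes are from this test unless DESeq2 is named. The median log2 fold change of the 8 was 0.29, against 0 over all genes. The same 6 were called by DESeq2, which called 9.01% of its genes, and the same 6 showed no overlap between the diets, a pattern that 13.1% of all genes showed in this direction.

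Bhlhe40 (DEC1), on chromosome 6 from 108660629 to 108666925, was at 86.7, 94.5 and 89.7 CPM in PBS control mice and 145, 145 and 122 in PBS acetate. It was at 119, 129 and 116 CPM in tau control and 112, 134 and 137 in tau acetate mice. The PBS control mice were the lowest 3 of all 12, and the other 3 groups overlapped one another. The log2 fold change with acetate under PBS was 0.61 (SE, standard error, 0.08), from 90.3 ± 3.96 to 137 ± 13.3 CPM (SD, n = 3 each).

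Per1, on chromosome 11 from 69095217 to 69109960, was at 76.6, 64.6 and 61.1 CPM in PBS control mice and 108, 103 and 91.6 in PBS acetate. It was at 79, 80.9 and 89.1 CPM in tau control and 93.3, 86.1 and 94.8 in tau acetate mice. Again the PBS control mice were the lowest 3, and both tau groups lay between the PBS groups in mean. The log2 fold change with acetate in PBS-injected mice was 0.58 (SE 0.08).

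Bhlhe41 (DEC2), the paralog of Bhlhe40, lies on chromosome 6 from 145858243 to 145865558. It showed 54.2, 63.9 and 59 CPM in PBS control mice and 74.5, 75.3 and 64.7 in PBS acetate. In tau control mice it showed 67.6, 53.7 and 58.8 CPM, and in tau acetate 68.4, 70.3 and 75.1. It was higher with acetate under both injections, with no overlap between the diets in either. In PBS-injected mice it rose by a log2 fold change of 0.28 (SE 0.08, adjusted p = 0.0685).

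Per2, on chromosome 1 from 91415982 to 91459324, was at 37.5, 38.9 and 33.4 CPM in PBS control mice, 45.2, 44.5 and 46.5 in PBS acetate, 45.8, 44.8 and 57.1 in tau control, and 50.8, 47.2 and 55.8 in tau acetate. The PBS control mice lay below all 9 others. Per2 rose with acetate in PBS-injected mice by a log2 fold change of 0.31 (SE 0.09, adjusted p = 0.0597). Per3, on chromosome 4 from 151003652 to 151044665, ranged from 39.5 to 57.2 CPM in PBS control mice and from 53.8 to 60 CPM in PBS acetate mice, which overlap, with a log2 difference of 0.25 (SE 0.14, adjusted p = 0.34).

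Of the cryptochromes, which act with PER proteins on the activator pair, Cry2 rose and Cry1 did not pass. Cry2, on chromosome 2 from 92403646 to 92434043, was at 153, 144 and 147 CPM in PBS control mice and at 171, 161 and 169 in PBS acetate mice, without overlap, and rose by a log2 fold change of 0.18 (SE 0.05, adjusted p = 0.0562). Cry1, on chromosome 10 from 85131700 to 85185064, was at 13.8, 16.5 and 17.9 CPM in PBS control mice and at 16.2, 15.3 and 13.2 in PBS acetate mice, with a log2 difference of -0.10 (95% interval -0.43 to 0.22, edgeR adjusted p = 0.755). Cry1 was the member with a negative difference. The difference between the 2 cryptochromes was not itself tested.

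Ciart, Dbp and Nr1d1 had the largest fold changes of the 8 members tested. Ciart (CHRONO), a repressor of the activator pair, on chromosome 3 from 95878503 to 95882251, was at 5.59, 5.64 and 5.21 CPM in PBS control mice, 10.9, 9.75 and 8.5 in PBS acetate, 7.43, 5.84 and 7.4 in tau control, and 7.19, 5.51 and 10.1 in tau acetate. It rose by a log2 fold change of 0.82 (SE 0.18, adjusted p = 0.0251) in PBS-injected mice, and its tau acetate mice spread over nearly the whole range of the PBS groups.

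Dbp, on chromosome 7 from 45705088 to 45710203, is a transcription factor that activates genes through D-boxes and a direct output of the clock. It was at 51.1, 53.4 and 44.7 CPM in PBS control mice and 78.7, 77.2 and 74.9 in PBS acetate. In tau control mice it was at 67.3, 55.6 and 45.7 CPM, and in tau acetate at 67.5, 54.4 and 78.2. The PBS groups stood apart, and the tau mice spread over the range of both. Dbp rose by a log2 fold change of 0.63 (SE 0.15, adjusted p = 0.0449).

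Nr1d1, on chromosome 11 from 98767932 to 98775333, was at 76.9, 79.7 and 63.9 CPM in PBS control mice, 96, 114 and 106 in PBS acetate, 95.9, 90 and 72.7 in tau control, and 96.2, 75.6 and 97.9 in tau acetate. It rose in PBS-injected mice by a log2 fold change of 0.52 (SE 0.13, adjusted p = 0.0508). Exons of Nr1d1 share 263 bases with Thra, and those of Dbp 539 bases with Sphk2, on the opposite strand, and 1280 bases of Bhlhe41, 295 of Cry2 and 118 of Bhlhe40 overlap other annotated genes in the same way. The count settings used strand, while the labels and the methods name a different version of the library kit, so reads of these overlaps are uncertain.

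**Figure D1:**
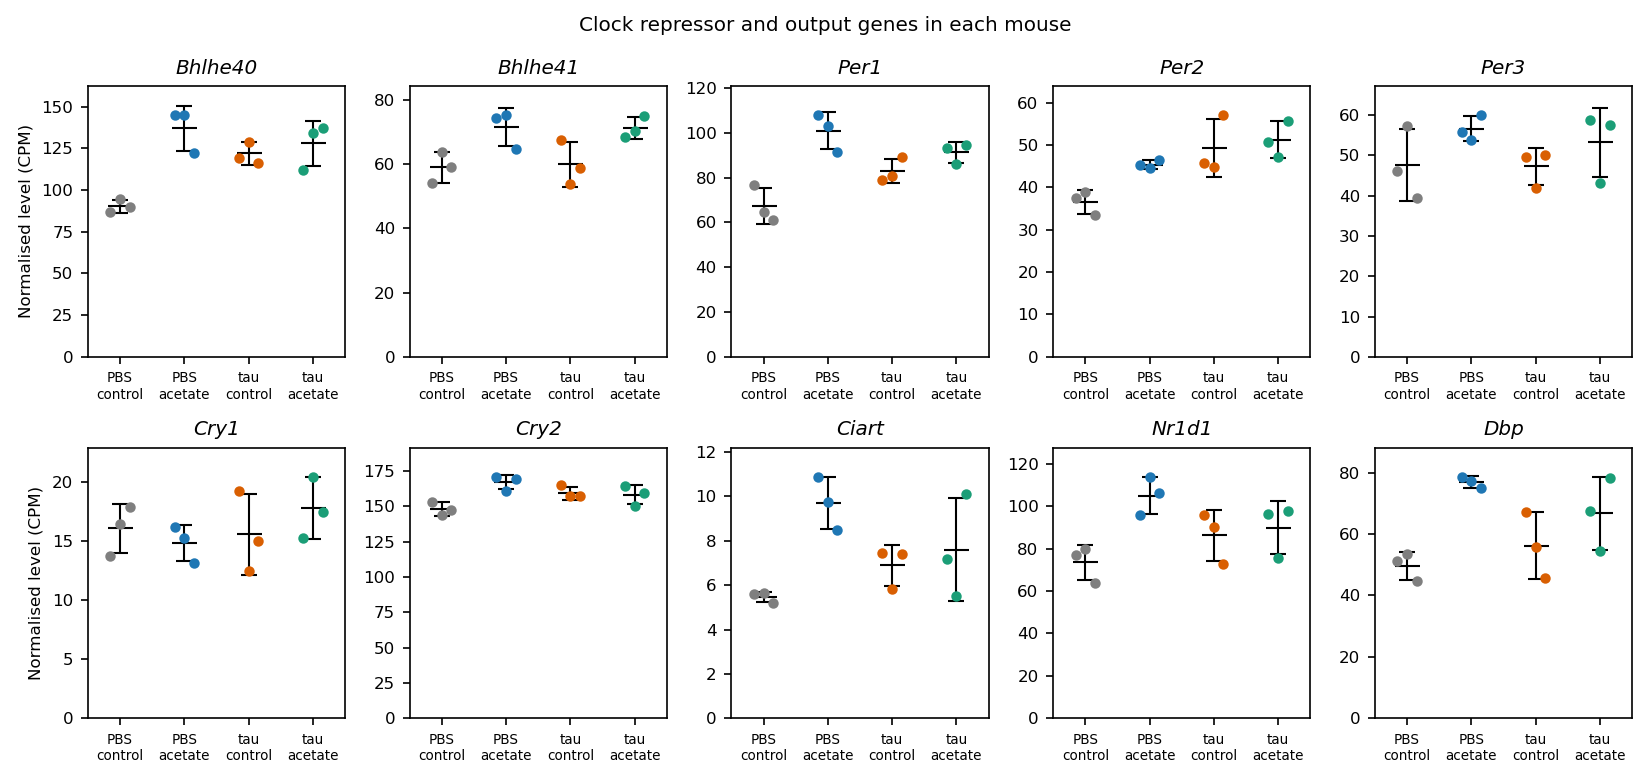
Normalised level of each of the 10 clock genes (CPM after TMM, linear axes from 0) by group. Points are single mice, and the horizontal mark and bars are the mean ± SD of 3 mice. Bhlhe40, Per1 and Per2 are lowest in the 3 PBS control mice, and Cry1 shows no separation between groups.

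Run again without each mouse, the count of 6 depended on mice of the compared groups. It was 0 without PBS acetate mouse 2, 1 (Ciart) without PBS control mouse 3, 2 (Ciart and Nr1d1) without PBS acetate mouse 1, and 4 to 6 without any other mouse. Calls over all genes tested fell in the same fits, from 1303 to 15, 248 and 315. Without PBS acetate mouse 2 the log2 fold changes were 0.82 for Ciart, 0.63 for Dbp and 0.21 for Cry2. The count was also 6 without PBS control mouse 2 and tau acetate mouse 3 together, with Per3 in place of Cry2 and 1032 of all genes called.

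The activators were then read beside these genes, to see whether the arms moved against each other. In PBS-injected mice no activator fell by the test, and Clock came near the threshold and passed it in some alternative fits. Arntl was at 38.8, 37.9 and 41.4 CPM in PBS control mice and at 35.5, 41.2 and 41.3 in PBS acetate mice, with a log2 difference of 0 (95% interval -0.17 to 0.17, edgeR adjusted p = 0.996). Npas2 was at 16.7, 16.2 and 12.5 CPM in PBS control mice and at 23.8, 24.8 and 20.5 in PBS acetate mice, without overlap. It rose by a log2 fold change of 0.60 (SE 0.12, adjusted p = 0.0157), the same direction as the repressors and outputs.

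Clock was at 124, 135 and 128 CPM in PBS control mice and at 115, 117 and 108 in PBS acetate mice, which did not overlap, with a log2 difference of -0.18 (SE 0.06) that missed the threshold (edgeR adjusted p = 0.101). Clock was called lower with DESeq2 size factors in edgeR (adjusted p = 0.0999), in the fit of the compared mice alone (adjusted p = 0.077) and without tau control mouse 3 (adjusted p = 0.0662), and not by DESeq2 itself (adjusted p = 0.103). Arntl2 (BMAL2), a low-abundance relative of Arntl at 7.38 to 8.11 CPM in PBS control mice and 9.71 to 10.6 in PBS acetate mice, rose by a log2 fold change of 0.36 (SE 0.12, adjusted p = 0.093), a call not made by DESeq2 (adjusted p = 0.154). Of the 6 activator-arm genes described, 2 rose and none fell, where edgeR called 3.99% of all genes higher and 4.85% lower. Rora and Rorb, receptors that drive Arntl, did not pass. Rora stood at 39.9, 87.8 and 49.7 CPM in PBS control mice, where mouse 2 was high, and at 35.6 to 42.8 CPM in PBS acetate mice, and it was called lower without PBS control mouse 1.

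Of 14 other clock genes (Nr1d2, Tef, Hlf, Nfil3, casein kinases, F-box proteins and others), 1 fell and none rose in PBS-injected mice. Over all genes, edgeR called 4.85% lower and 8.84% in either direction, so 1 of 14 was near the share of all genes. The gene that fell was Nampt, an enzyme of NAD synthesis under clock control, from 84.2 ± 2.78 to 73.1 ± 1.37 CPM (SD, n = 3), a log2 difference of -0.20 (SE 0.05, adjusted p = 0.0463). Nr1d2, the paralog of Nr1d1, was at 92.7, 96.6 and 91.3 CPM in PBS control mice and at 107, 104 and 103 in PBS acetate mice, without overlap, and did not pass in this fit. Tef, a D-box factor related to Dbp, was at 329 to 364 CPM in PBS control mice and at 354 to 364 in PBS acetate mice, which overlap.

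**Figure D2:**
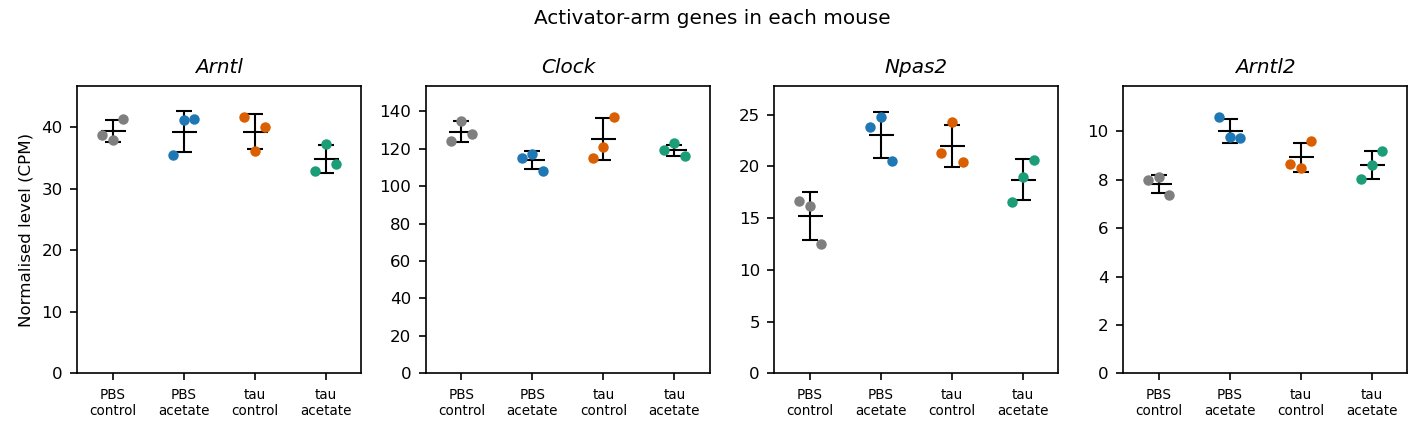
Normalised level of Arntl, Clock, Npas2 and Arntl2 (CPM after TMM, linear axes from 0) by group. Points are single mice, and the horizontal mark and bars are the mean ± SD of 3 mice. Npas2 is higher with acetate in PBS-injected mice, and Arntl overlaps between the diets under both injections.

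In tau-injected mice, where the comparison asks what the diet changes once tau is present, no member passed the test by edgeR, nor by DESeq2, which gave no adjusted p for Ciart and Cry1. At an unadjusted p below 0.05, 1 of the 10 did, Bhlhe41, which was also the 1 member without overlap between the diets. Across all genes, 0.0611% were called by edgeR and 2.14% by DESeq2, 10.9% had an unadjusted p below 0.05, and 6.66% were higher without overlap. The differences were positive for 9 of the 10 members with a median log2 difference of 0.14, against 0 over all genes. Bhlhe40 differed by 0.07 (95% interval -0.10 to 0.24, edgeR adjusted p = 0.811), and Per1 by 0.14 (95% interval -0.03 to 0.31, edgeR adjusted p = 0.559). Both were picked for their pattern, so these 2 tests may not be independent of the choice. Without them, 7 of the 8 differences were positive, with a median of 0.16.

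Bhlhe41 was the member that came nearest to a call, with a log2 difference of 0.25 (SE 0.08, unadjusted p = 0.00871 from edgeR, adjusted p = 0.292), close to its value in PBS-injected mice. Dbp differed by 0.25 (SE 0.15), Cry1 by 0.19 (SE 0.15) and Cry2 by -0.01 (SE 0.05) on the log2 scale. Among activators, Arntl was at 41.7, 36.1 and 40.1 CPM in tau control mice and at 32.9, 37.3 and 34.1 in tau acetate mice, and Npas2 at 21.3, 24.3 and 20.4 against 16.6, 19 and 20.6 CPM. The groups overlapped for both genes. Their log2 differences were -0.18 (SE 0.08) and -0.24 (SE 0.11), with edgeR adjusted p of 0.424 and 0.455, so neither passed, and 0 of the 6 activator-arm genes and 0 of the 14 other clock genes were called by edgeR or DESeq2, which gave no adjusted p for 2 and 3 of them. At an unadjusted p below 0.05, 2 of the 6 (Arntl and Npas2) and 0 of the 14 passed.

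The difference between the diet effects under tau and under PBS was tested as an interaction, in which edgeR called 1.56% of all genes and DESeq2 2.84%, and 13% had an unadjusted p below 0.05. None of the 8 members not picked passed by edgeR or by DESeq2, and 3 (Cry2, Ciart and Nr1d1) did at an unadjusted p below 0.05. The median interaction of the 8 was -0.22, with 7 negative. As a description, the interactions of Bhlhe40 and Per1 were -0.54 and -0.44 on the log2 scale. Npas2 was the only gene of the activator arm that passed, at -0.85 (SE 0.16, adjusted p = 0.0435), with a positive difference with acetate in PBS-injected mice and a negative one in tau-injected mice. The Npas2 interaction lost its call without PBS acetate mouse 2 (adjusted p = 0.146) or without tau acetate mouse 1 (adjusted p = 0.114). None of the 14 other clock genes passed by edgeR or DESeq2, and 1 (Fbxl21) did at an unadjusted p below 0.05.

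**Figure D3:**
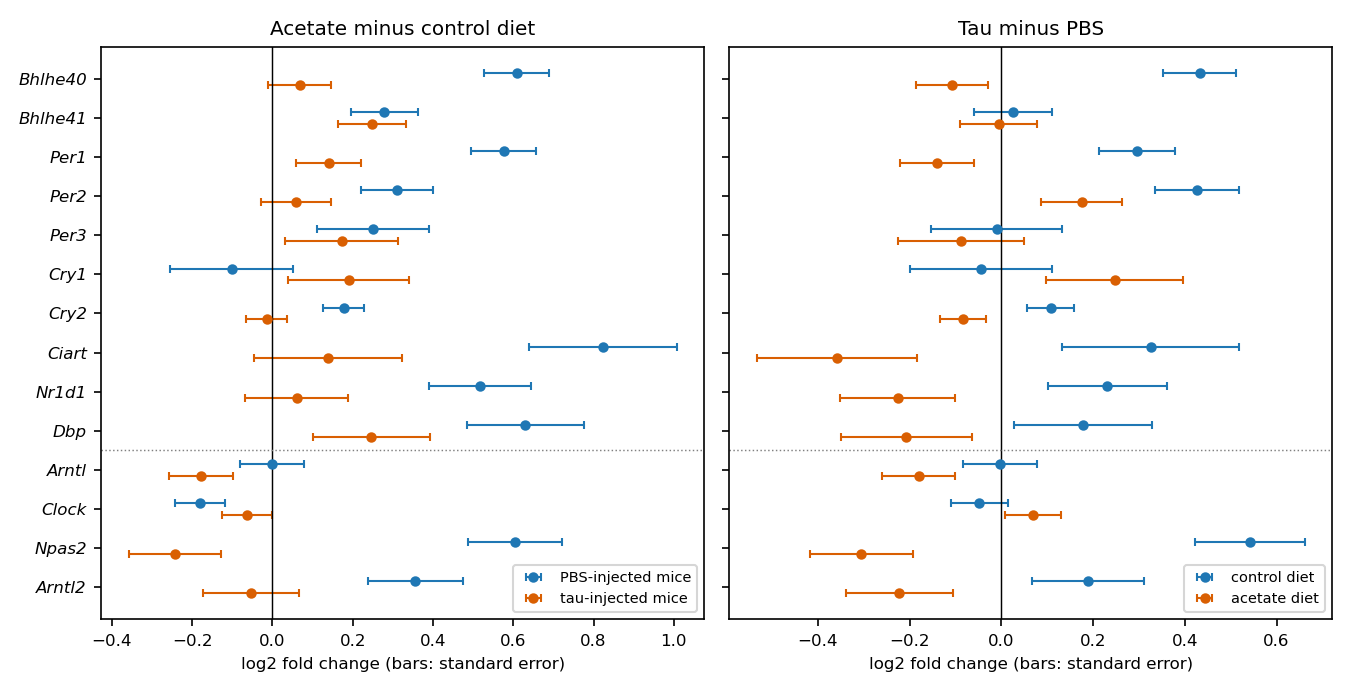
Log2 fold change with its SE for the 10 clock genes and, under the dotted line, 4 activator-arm genes. The left panel shows acetate minus control diet in PBS-injected and tau-injected mice and the right panel tau minus PBS on each diet, so each group of mice enters both panels. For 9 of the 10 members the diet difference is positive in PBS-injected mice, and Npas2 lies at 0.60 and -0.24 under the 2 injections.

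Tau against PBS was compared on each diet. The control-diet comparison shares the PBS control mice with the diet comparison above, so the values are given side by side and not as separate support. On the control diet 0 of the 8 members passed by edgeR, against 0.0136% of all genes, and 2 (Per2 and Cry2) did at an unadjusted p below 0.05, against 9.65%. DESeq2 called 0.694% of its genes and 1 of the 8, Per2 (adjusted p = 0.0225), whose log2 difference was 0.43 (SE 0.09, adjusted p = 0.231). Bhlhe40 and Per1 were higher in tau control than in PBS control mice by 0.43 and 0.30 on the log2 scale, without overlap, as a description. Npas2 showed the same direction, with a log2 difference of 0.54 (SE 0.12, edgeR adjusted p = 0.231, DESeq2 adjusted p = 0.0326). No overlap between the groups was found for 3 of the 8, Per2, Cry2 and Ciart, all higher with tau, where 6.61% of all genes had this pattern.

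On the acetate diet 0 of the 8 members passed by edgeR or DESeq2, and none did at an unadjusted p below 0.05. Across all genes, 0.136% were called by edgeR, 0.804% by DESeq2 and 10.3% at that unadjusted p. The median log2 difference was -0.09. Ciart had the lowest value, -0.36 (SE 0.17, adjusted p = 0.488), and Cry1 the highest, 0.25 (SE 0.15, adjusted p = 0.599). Of the 6 activator-arm genes, 0 were called by edgeR or DESeq2, and 2 (Arntl and Npas2) had an unadjusted p below 0.05. Their log2 differences were -0.18 (SE 0.08, edgeR adjusted p = 0.444) and -0.30 (SE 0.11, edgeR adjusted p = 0.353). Across the 6 genes, 4 differences were negative and 2 positive. Of the 14 other clock genes 0 were called, and 2 (Fbxl21 and Fbxw11) had such an unadjusted p.

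To set both arms beside each other in every mouse, the mean centred log2 CPM of Arntl, Npas2 and Clock was subtracted from that of Dbp, Nr1d1, Nr1d2, Tef, Per1, Per2, Per3 and Ciart. This balance, a log2 scale with 0 as the mean of all mice, is given with no test because Per1 is part of it. It was -0.15, -0.11 and -0.20 in PBS control mice, 0.17, 0.06 and 0.14 in PBS acetate, -0.02, -0.18 and -0.14 in tau control, and 0.26, -0.10 and 0.28 in tau acetate. All 6 control-diet mice lay below 0, and 5 of the 6 acetate mice above it, tau acetate mouse 2 being the exception. Without Per1 the group means were -0.14 ± 0.06, 0.11 ± 0.06, -0.11 ± 0.1 and 0.14 ± 0.23 (SD, n = 3) in the same order.

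The scores of the 2 arms were then read apart. In the PBS acetate mice the output score was 0.15 to 0.21 and the activator score 0.01 to 0.14, both above the PBS control mice at -0.34 to -0.15 and -0.14 to -0.04. In tau acetate mice 1 and 3 the output score was 0.10 and 0.23, above every tau control mouse (-0.10 to 0.05), while the activator score was -0.15 and -0.04, below every tau control mouse (0.07 to 0.11). Tau acetate mouse 2 had an output score of -0.12 and an activator score of -0.02, both below the tau control mice. The higher activator score of the PBS acetate mice rested on Npas2. From Arntl and Clock alone, the activator score was -0.09, 0.03 and -0.02 in PBS acetate mice against 0.03, 0.07 and 0.10 in PBS control mice, and -0.12, -0.01 and -0.11 in tau acetate mice against 0.03, -0.04 and 0.13 in tau control mice. Without Npas2 the diet difference in balance was 0.51 in PBS-injected mice (0.27 with it) and 0.22 in tau-injected mice (0.26 with it). This alternative was added after seeing the data, and no test was run on these scores.

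**Figure D4:**
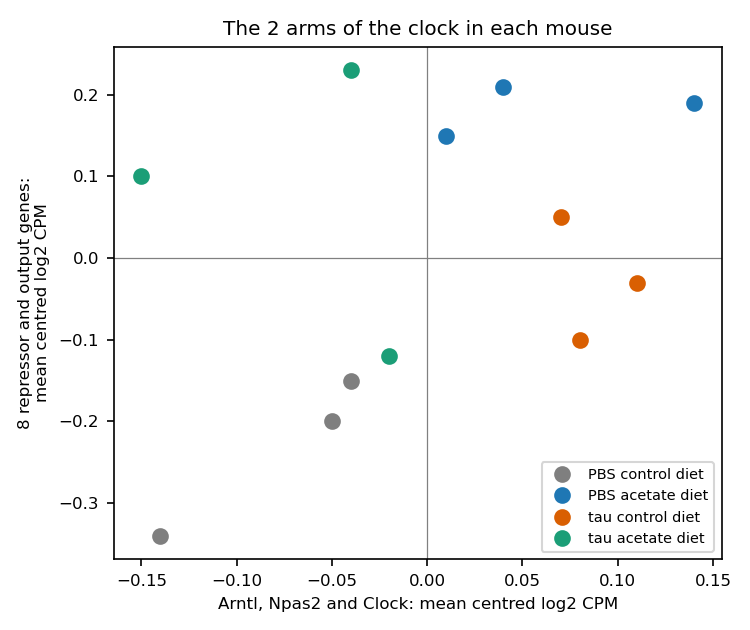
Each point is a mouse, placed by the mean centred log2 CPM of the activators Arntl, Npas2 and Clock (horizontal) and of the 8 repressor and output genes (vertical). PBS acetate mice lie up and to the right of PBS control mice, with both scores higher, the horizontal shift resting on Npas2, and tau acetate mice 1 and 3 lie up and to the left of the tau control mice.

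Within groups, pairs of clock genes were compared after each group's mean was removed, over 12 mice and 8 pairs, by an exact two-sided permutation test of mouse order within groups. None of the pairs passed. Dbp and Ciart had the highest Pearson r, 0.61 (permutation p = 0.128, Benjamini-Hochberg adjusted p = 0.413), with Spearman rho 0.60 (permutation p = 0.104, adjusted p = 0.416), and r was 0.70 without the 2 mice farthest from the median of Dbp. Dbp and Arntl, which run opposite in phase in a cycling tissue, had r = -0.29 (permutation p = 0.441, adjusted p = 0.853), rho = -0.27 (permutation p = 0.48, adjusted p = 0.782) and r = -0.02 without such mice. Bhlhe40 and Per1, whose group means moved alike, had r = 0.05 within groups (permutation p = 0.878, adjusted p = 0.878) and rho = 0.10 (permutation p = 0.757, adjusted p = 0.79), with r = -0.24 without the 2 mice farthest from the median of Bhlhe40. The other 5 pairs had r between -0.23 and 0.53.

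Among 13856 genes of at least 1 CPM, those most like Bhlhe40 over all 12 mice were Kcnh3, Pak6, D430019H16Rik, Fam189a1 and Gprin1, with Pearson r of 0.959, 0.958, 0.952, 0.952 and 0.945, given as a description. None of these is a clock gene. Among the other members and Arntl, Clock and Npas2, those most like Bhlhe40 were Npas2 and Per1, at r = 0.846 and 0.83, and its paralog Bhlhe41 ranked 873 at r = 0.66. For Per1 the nearest genes were Ccdc88c, Cmya5, Ptpru, Drp2 and Ltk, with r of 0.944, 0.929, 0.917, 0.915 and 0.91, and the nearest members were Ciart at rank 56 (r = 0.833) and Bhlhe40 at rank 62 (r = 0.83). These r values hold the differences between groups as well as those within them.

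Markers of hippocampal subfields moved with the same groups. All 5 markers of CA1 pyramidal neurons were higher with acetate in PBS-injected mice (4 of 5 rose, median log2 fold change 0.68), and all 5 markers of CA3 were lower (3 of 5 fell, median -0.72). Of all genes, edgeR called 3.99% higher and 4.85% lower in this comparison. The summed level of the CA1 markers was 452 to 589 CPM in PBS control and 718 to 946 CPM in PBS acetate mice, and that of the CA3 markers 497 to 569 and 266 to 414 CPM. With the CA1 minus CA3 score of each mouse as a covariate, the diet difference in PBS-injected mice was 0.23 (SE 0.10) for Bhlhe40, 0.45 (SE 0.15) for Per1, 0.56 (SE 0.33) for Ciart, 0.44 (SE 0.27) for Dbp, 0.39 (SE 0.24) for Nr1d1, 0.12 (SE 0.15) for Bhlhe41 and 0.08 (SE 0.17) for Npas2, all smaller than without it. It was larger for Per2 at 0.35 (SE 0.17), Per3 at 0.42 (SE 0.26) and Cry2 at 0.24 (SE 0.09), and Cry1 stood at -0.30 (SE 0.29). The Npas2 interaction was -0.46 with this covariate (adjusted p = 0.685). In that fit 0 of the 8 members were called in PBS-injected mice, and the 8 gave an edgeR adjusted p of 0.963 each, and 0 of all 14742 genes were called in that fit against 1303 without the covariate. Neither the CA1 nor the CA3 score overlapped between the diets in PBS-injected mice, so this covariate and the diet can hardly be told apart there. Standard errors were larger with it, 0.15 against 0.08 for Per1 and 0.33 against 0.18 for Ciart. The part of tissue composition in the clock gene differences was not tested.

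Myelin markers were also lower with acetate in PBS-injected mice (4 of 11 fell by edgeR, median log2 fold change -0.59), as was 1 of 5 choroid plexus markers, Folr1. Of all genes, 4.85% were called lower and 3.99% higher in this comparison. Of 6 astrocyte markers 1 rose and 1 fell. None of 4 thalamic, 6 dentate granule, 5 microglial and 4 endothelial markers passed by edgeR, with medians of -1.02, 0.16, 0.05 and -0.05. At an unadjusted p below 0.05, 1 thalamic and 1 dentate granule marker did, and DESeq2 called 1 of the thalamic markers. The share of all genes at that unadjusted p is not given here.

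Immediate early genes, which report neuronal activity, and glucocorticoid response genes are each groups that share inputs with Per1. In PBS-injected mice 0 of 12 immediate early and 0 of 10 glucocorticoid response genes were called by edgeR or DESeq2. Over all genes, edgeR called 8.84% and DESeq2 9.01%. At an edgeR unadjusted p below 0.05, 0 and 2 passed, counts given without the share of all genes at that p. The median log2 differences were -0.03 and 0.04, beside 0.29 for the 8 clock genes, which leave out Bhlhe40 and Per1. The part of neuronal activity or glucocorticoids in the clock gene differences was not tested. In tau-injected mice, 0 of 12 and 0 of 10 were called by edgeR or DESeq2 and 0 and 1 had an unadjusted p below 0.05, with medians of 0.09 and 0.10. DESeq2 gave no adjusted p there for 7 of the 12 and 4 of the 10.

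**Figure D5:**
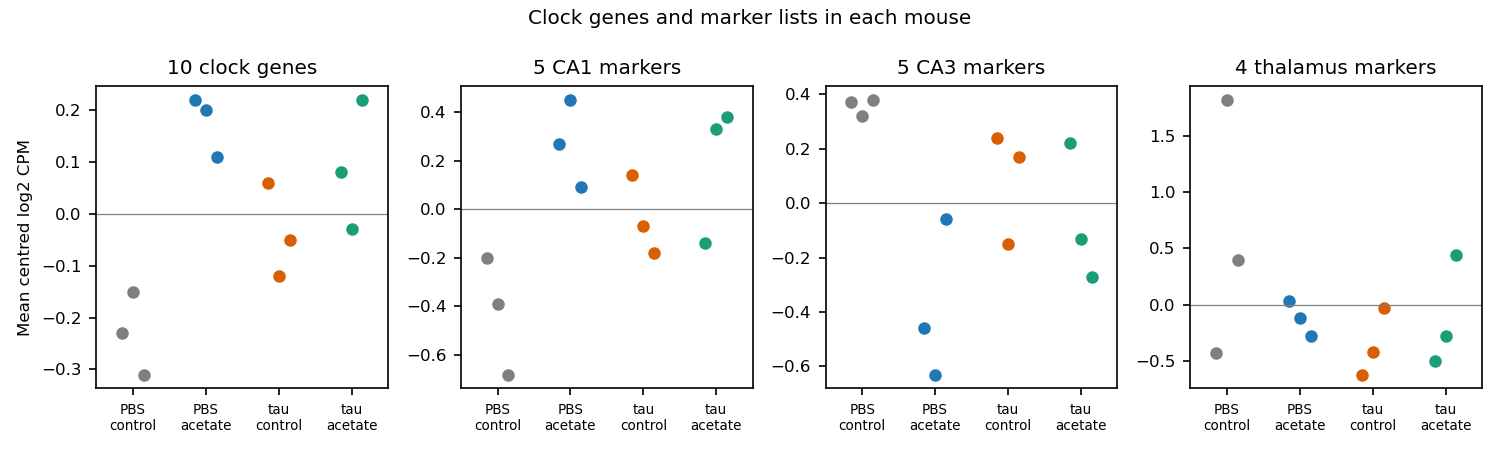
Mean centred log2 CPM of the 10 clock genes and of markers of CA1, CA3 and thalamus in each mouse, by group. The clock and CA1 scores are lowest and the CA3 scores highest in the PBS control mice, and PBS control mouse 2 stands highest for thalamic markers.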

How the data were processed

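Polyadenylated RNA of 12 mice (dorsal hippocampus, 4 groups of 3 taken from the sample labels) was sequenced by the study. The authors aligned reads to GRCm38 with STAR 2.5.2a, used SAMtools 1.1, and counted reads per gene with HTSeq 0.9.1 with strand. The deposited values are raw counts, 12983233 to 20218340 per mouse, and 0 columns of samples were left unused. Everything else was computed here. Genes were kept by filterByExpr (minimum count 10, minimum total 15), which left 14742 of 24985. The test was the robust quasi-likelihood F test of edgeR 4.0.16 (R 4.3.3, limma 3.58.1) with TMM scaling and a mean per group over all 12 mice, with 8 residual degrees of freedom before pooling across genes. A call is an adjusted p below 0.1, by Benjamini-Hochberg over all genes tested. The F statistic gave the standard errors. DESeq2 1.42.0, the tool of the study, was an alternative. Scores use log2 CPM with a prior count of 2. Scripts were tested on simulated data.

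The clock genes and all gene lists were chosen with earlier results of these data known, so no list is independent evidence. The genes named are all 10 members, Arntl, Clock and Npas2, any other listed clock gene that passed in at least 1 comparison or had the smallest p of its list in a diet comparison, and the 5 genes most like Bhlhe40 and Per1. Nr1d2, Tef, Rora and Rorb were named after their values were seen, and 1 gene of the activator arm is not reported here. Exon lengths and gene positions are from GENCODE (GRCm38), promoters from RefSeq (GRCm38.p6). The spread between mice (common biological coefficient of variation 7.25%) limits precision more than depth does for the more abundant of these genes. Low genes such as Ciart, with 73 to 189 counts per mouse, are also limited by depth. The replicate numbers were not taken as pairs in the main fit, although all 6 mice of the diet comparison under PBS correlated best with their own number. Alternatives were another scaling, no filter, DESeq2, the compared mice alone, a stricter threshold of 0.05, the replicate number as a block, a covariate of subfield markers, and leaving out each mouse. Leaving out PBS control mouse 2 with tau acetate mouse 3, DESeq2 size factors for scores, and the arm balance without Npas2 were added after seeing the data.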

Additional observations from a re-analysis of the deposited data

Results flagged for a closer look

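Npas2 differed between the injections in its response to the diet: the interaction was -0.85 on the log2 scale (edgeR adjusted p = 0.0435), with Npas2 higher on acetate in all 3 PBS-injected mice than in any PBS control mouse, and overlapping between the diets in tau-injected mice. The interaction was -0.93 to -0.73 with each mouse left out, and -0.46 (edgeR adjusted p = 0.685) with the CA1 minus CA3 score as a covariate. It passed in 10 of the 12 fits with a mouse left out. The call was lost without PBS acetate mouse 2 (edgeR adjusted p = 0.146) and without tau acetate mouse 1 (edgeR adjusted p = 0.114).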

How the results depend on the processing

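In PBS-injected mice the main fit called 6 members, with 1303 of all genes. The count of members was also 6 under another scaling (1313 of all genes), no filter (1113) and DESeq2 (1357). It was 6 in the compared mice alone (1537 of all genes) and with the replicate block (1224). It was 2 at an adjusted p below 0.05 (541 of all genes), and 0 with the CA1 minus CA3 covariate (0 of all genes). The 2 activator-arm calls, both higher, became 3 with DESeq2 size factors, where Clock was added as lower, and Npas2 higher with Clock lower in the compared mice alone. They became 1 with no filter, with DESeq2, at 0.05, with the replicate block and without PBS control mouse 2 and tau acetate mouse 3 together, and 0 with the covariate. The call among other clock genes became 2 in the compared mice alone and 0 with the covariate. On the control diet, tau against PBS gave 1 member and 1 activator-arm gene by DESeq2 (86 of all genes). The interaction gave 1 member (Ciart) without PBS control mouse 2 and tau acetate mouse 3 together, where 374 of all genes were called. With the covariate it gave 0 activator-arm genes (4 of all genes). The main fit called 230 of all genes in the interaction. The fewer calls at 0.05 follow from the threshold, and for the others the cause was not tested.

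With each mouse left out in turn, calls in PBS-injected mice ranged from 0 to 6 for members, 0 to 3 for the activator arm and 0 to 2 for other clock genes. In the interaction they ranged from 0 to 1 for members and 0 to 1 for the activator arm. Calls over all genes ranged from 15 to 1425 in PBS-injected mice and from 8 to 442 in the interaction. The difference in arm balance ranged from 0.19 to 0.38 for the diet in tau-injected mice, -0.04 to 0.15 for tau on acetate and -0.08 to 0.11 for the interaction, and all 3 highest values came without tau acetate mouse 2. Without Npas2 the balance differed by 0.51 for the diet in PBS-injected mice, 0.23 for tau on the control diet and -0.29 in the interaction. Within-group r ranged from 0.34 to 0.91 for Dbp and Ciart, where leaving out tau control mouse 2 or 3 gave r = 0.66 or 0.91 (permutation adjusted p = 0.0185 each), from -0.35 to 0.28 for Bhlhe40 and Per1, -0.30 to 0.13 for Dbp and Tef, -0.57 to 0.04 for Nr1d1 and Arntl, and -0.46 to 0.04 for Per2 and Arntl.

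Differences that changed sign were small. In PBS-injected mice Arntl was 0.02 with the covariate, 0.01 with no filter and -0.04 to 0.07 with a mouse left out. In tau-injected mice the covariate gave -0.03 for Bhlhe40 and 0 for Cry2, and Ciart was -0.10 without the 2 mice named above. With a mouse left out, values there were -0.10 to 0 for Arntl2, -0.10 to 0.32 for Ciart, -0.11 to 0.01 for Clock, -0.03 to 0.02 for Cry2, -0.05 to 0.17 for Nr1d1 and -0.01 to 0.18 for Per2. For tau on the control diet the covariate gave 0 for Arntl, -0.05 for Bhlhe41 and 0.07 for Per3, Per3 was 0.14 without the 2 mice, and the ranges were -0.05 to 0.06 for Arntl, -0.07 to 0.10 for Bhlhe41, -0.12 to 0 for Clock, -0.23 to 0.10 for Cry1 and -0.13 to 0.14 for Per3. For tau on acetate the covariate gave 0.04 for Bhlhe41, and the ranges were -0.07 to 0.03 for Bhlhe41 and -0.17 to 0.04 for Per3. In the interaction the covariate gave 0.09 for Bhlhe41, and the ranges were -0.11 to 0.06 for Bhlhe41 and -0.23 to 0.05 for Per3.

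The replicate numbers gave correlations of deviations from -0.09 to 0.14, and all 6 mice of the diet comparison under PBS, but 0 of 6 in each other comparison, correlated best with their own number. The replicate block therefore stands only as an alternative: it gave 6 members and 1 activator-arm gene in PBS-injected mice and 0 members in each other comparison. With 3 mice a group, small differences of low genes such as Ciart cannot be seen.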
